A study of Mus musculus with 24 samples.

Results

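The genes described here are Notch1, Notch2, Rbpj, Klf4, Relb, Dtx1, Hes1 and Runx3, a group of receptors, transcription factors and a ubiquitin ligase known from the differentiation of conventional type 2 dendritic cells. They were taken as a list by gene symbol, without use of their measured values in the choice rule. The list was, however, chosen with earlier results of these data known. All 8 were found among the 24421 symbols of the count files. All 8 passed the filter on low counts, which kept 13166 genes for testing. RNA was sequenced from cDC1 and cDC2, the 2 subsets of conventional dendritic cells, sorted from mouse spleens in 24 libraries. The series title names the transcription factor Zeb2 and the development of dendritic cells as its subject.

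The mice were C57Bl/6, untreated and 6 to 12 weeks old. In the deletion line, the Cre+ mice carried CD11cCRExZeb2fl/fl, in which Cre recombinase driven by CD11c sequences excises part of the floxed Zeb2 gene, and the Cre- littermates carried Zeb2fl/fl. In the transgene line, the Cre+ mice carried CD11cCRExR26-Zeb2Tg/Tg, in which the same Cre switches on a Zeb2 transgene placed in the Rosa26 locus, and the Cre- littermates carried R26-Zeb2Tg/Tg. Because CD11c is also found on other cells, such as some macrophages, the driver limits both lines as models of a change in dendritic cells alone. Each subset and line gave 4 Cre+ and 2 Cre- libraries. The labels do not say whether libraries of 1 group came from separate mice, so the p-values measure the spread between libraries, which may be partly technical.

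Notch receptors are cut at the membrane when they meet a ligand, and the freed intracellular part joins the DNA-binding protein RBPJ in the nucleus to switch on targets such as Hes1 and Dtx1. In the mouse spleen, loss of Notch2 or Rbpj in CD11c-expressing cells is known to reduce the Esam-expressing cDC2. Klf4, a zinc-finger factor, and Relb, a subunit of the NF-kappa B family, are likewise known to be needed for parts of the cDC2 population. Runx3, a factor of the RUNX family, is known from splenic Esam-expressing dendritic cells and from Langerhans cells.

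Library totals ran from 21972763 to 36094786 counts over genes, and values are given as CPM, counts scaled to a library of fixed size after TMM normalization. The 9 genes of the cDC2 marker list summed to 2597 to 3492 CPM in the 12 cDC2 libraries and to 31.8 to 324 CPM in the 12 cDC1 libraries. The 9 genes of the cDC1 list summed to 147 to 334 CPM in cDC2 and to 4161 to 8792 CPM in cDC1, so both labels stood with their markers. Zeb2 itself had 38.0, 41.4, 33.0 and 30.7 CPM in Cre+ cDC2 of the deletion line, against 176 and 132 CPM in the Cre- cDC2. In the transgene line it had 44.3, 45.0, 46.2 and 41.3 CPM in Cre+ cDC1, against 3.25 and 2.36 CPM in Cre- cDC1. In cDC2 of that line Zeb2 had 151, 152, 148 and 159 CPM with Cre, against 104 and 104 CPM without it, and in cDC1 of the deletion line it was scarce in both groups, at 0.457 to 2.67 CPM with Cre and 0.488 to 2.56 CPM without. Zeb2 has an exon-sharing antisense gene, Zeb2os, and the strand setting of the counting is not given in the sources used here, so reads of the pair cannot be told apart. In bulk libraries such as these, fewer cells of a type and less RNA per cell cannot be told apart.

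The first comparison set the Cre- cDC2 of both lines against their Cre- cDC1. Most of the genes differed: Dtx1, Klf4, Relb, Runx3 and Hes1 were higher in cDC2, while Notch1 and Rbpj were lower. Notch2 did not pass the test. By the quasi-likelihood test of edgeR, adjusted by Benjamini-Hochberg across 13166 genes, 7 of 8 passed an adjusted p of 0.05, and so did 53.4% of all tested genes (27.6% higher and 25.8% lower in cDC2). A difference between the subsets is therefore common across the genome, and the size and direction of each change say more than the count. The libraries of both control groups did not overlap for 7 of the 8, against 45.9% of all tested genes (23.4% higher and 22.6% lower). These Cre- libraries also serve as the controls of the Cre comparisons further on, so the comparisons are not independent.

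**Figure D1:**
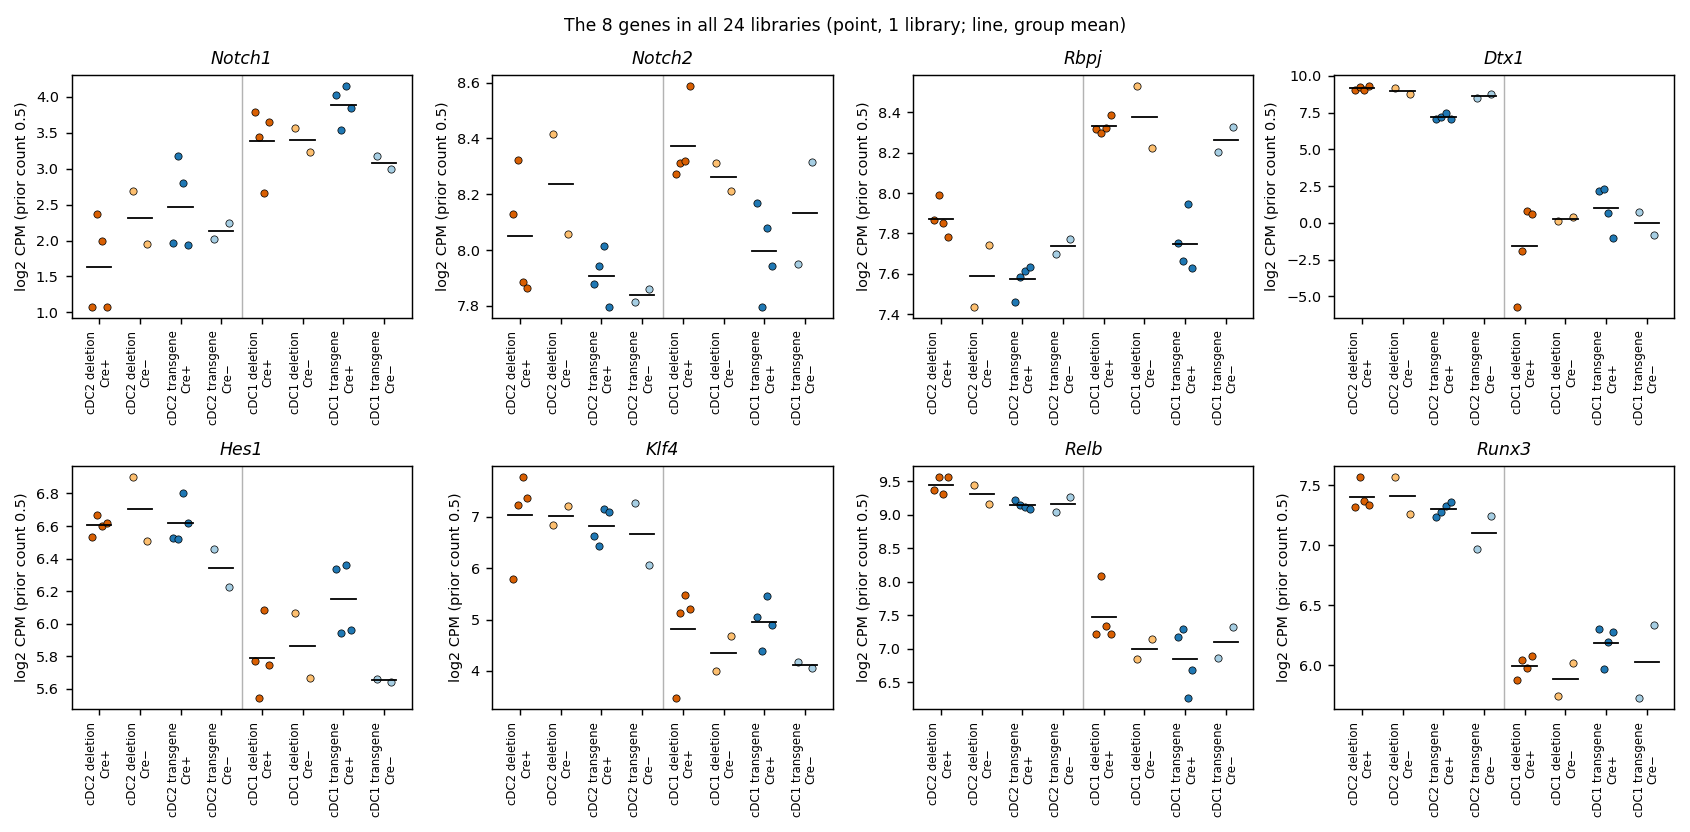
Level of each of the 8 genes in each of the 24 libraries as log2 CPM (vertical axis, prior count 0.5, a scale of its own in each panel), with Cre+ left of Cre- and cDC2 left of cDC1; points are libraries and lines are group means. Dtx1, Klf4, Relb and Runx3 are higher in every cDC2 library than in any cDC1 library, and Dtx1 is lowest among cDC2 groups in the Cre+ transgene line.

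Notch1 (chr2:26457903-26516663, minus strand, in GENCODE on GRCm38) encodes the receptor best known from T cell development. It had 6.42 and 3.84 CPM in Cre- cDC2 of the deletion line and 4.03 and 4.72 CPM in Cre- cDC2 of the transgene line, against 11.9 and 9.37 CPM and 9.04 and 7.93 CPM in the matching Cre- cDC1. All 4 control cDC2 libraries lay below all 4 control cDC1 libraries. The log2 fold change was -1.0 with a standard error (SE) of 0.30 (edgeR adjusted p = 0.00797). Exons of Notch1 share 1068 bases with the opposite-strand gene 0610009E02Rik in the GENCODE annotation used here, and reads of such stretches cannot be told apart.

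Notch2 (chr3:98013527-98150361, plus strand) encodes the receptor that cDC2 of the spleen are known to need. It had 342 and 266 CPM in Cre- cDC2 of the deletion line and 225 and 232 CPM in the Cre- transgene line, against 318 and 297 CPM and 247 and 318 CPM in the matching Cre- cDC1. The groups overlapped, and the log2 fold change was -0.16 with a 95% interval of -0.39 to 0.071 (edgeR adjusted p = 0.238). The transcript of the receptor tied to cDC2 was thus present in both subsets at levels that this test did not separate. Over all 24 libraries Notch2 stayed between 222 and 385 CPM.

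Notch1 and Notch2 were far apart in level. Per kilobase of annotated exons, Notch2 averaged 24.7 ± 4.9 CPM in the 4 control cDC2 libraries, against 0.334 ± 0.082 CPM for Notch1 (SD, n = 4). In control cDC1 Notch2 averaged 27.4 ± 3.1 CPM per kilobase and Notch1 0.671 ± 0.12 CPM per kilobase. The ratio of Notch2 to Notch1 per kilobase ran from 35.8 to 177 over the 12 cDC2 libraries and from 20.0 to 66.8 over the 12 cDC1 libraries. Notch2 was thus more abundant than Notch1 in every library of both subsets. Notch3 and Notch4 were not part of this comparison.

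Rbpj (chr5:53466152-53657362, plus strand) encodes the DNA-binding partner of all Notch receptors, which holds targets silent in their absence. Cre- cDC2 had 173 and 214 CPM in the deletion line and 208 and 219 CPM in the transgene line, against 370 and 299 CPM and 295 and 321 CPM in the matching Cre- cDC1. The 4 control cDC2 libraries lay below the 4 control cDC1 libraries, with a log2 fold change of -0.66 (SE 0.085, edgeR adjusted p = 5.9e-07). The nuclear partner of the pathway was thus lower in the subset in which its target Dtx1 was high.

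Dtx1 (chr5:120680202-120711927, minus strand) encodes Deltex1, a ubiquitin ligase that binds Notch and is itself a textbook Notch target. It had 574 and 443 CPM in Cre- cDC2 of the deletion line and 355 and 430 CPM in the Cre- transgene line. The matching Cre- cDC1 had 1.09 and 1.30 CPM and 1.65 and 0.541 CPM, which rest on 11 to 41 counts per library. The log2 fold change of 8.58 (SE 0.52, edgeR adjusted p = 2.3e-12) was the largest of the 8 genes, and the 4 libraries of each subset were far apart. Hes1 (chr16:30064384-30067796, plus strand), a repressor of the basic helix-loop-helix class and the other canonical target in the group, differed far less. It had 120 and 91.1 CPM and 87.9 and 74.9 CPM in Cre- cDC2 of the deletion and transgene lines, against 66.9 and 50.8 CPM and 50.5 and 50.0 CPM in the matching Cre- cDC1. Its log2 fold change was 0.77 (SE 0.12, edgeR adjusted p = 1.5e-05), without overlap between the subsets.

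Klf4 (chr4:55527143-55532466, minus strand) had 115 and 147 CPM in Cre- cDC2 of the deletion line and 154 and 66.7 CPM in the Cre- transgene line, against 16.0 and 25.6 CPM and 18 and 16.7 CPM in the matching Cre- cDC1. The lowest control cDC2 library was still above the highest control cDC1 library, and the log2 fold change was 2.66 (SE 0.39, edgeR adjusted p = 3.9e-06). Relb (chr7:19606217-19629438, minus strand) had 697 and 571 CPM and 527 and 618 CPM in the control cDC2, against 115 and 142 CPM and 116 and 161 CPM in the control cDC1. Its log2 fold change was 2.17 (SE 0.20, edgeR adjusted p = 2.3e-09). Runx3 (chr4:135120652-135177990, plus strand) had 190 and 153 CPM and 125 and 152 CPM in the control cDC2, against 53.8 and 64.9 CPM and 53.0 and 80.8 CPM in the control cDC1, a log2 fold change of 1.29 (SE 0.11, edgeR adjusted p = 1.4e-09). For each of these factors the subsets did not overlap.

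Klf4 belongs to a class of genes that respond quickly when cells are handled, and 10 of 14 genes of an early response and heat shock list passed as higher and 2 as lower in cDC2 of the Cre- libraries, set against their cDC1, where 27.6% of all tested genes were higher and 25.8% lower. The list summed to 22835 to 41600 CPM in cDC2 and to 11382 to 24447 CPM in cDC1, ranges that overlap slightly. The 6 genes of a mature dendritic cell list, a state in which Relb is known to be high, summed to 1345 to 3572 CPM in cDC2 and to 201 to 3068 CPM in cDC1. Their part in the Klf4 and Relb differences was not tested.

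**Figure D2:**
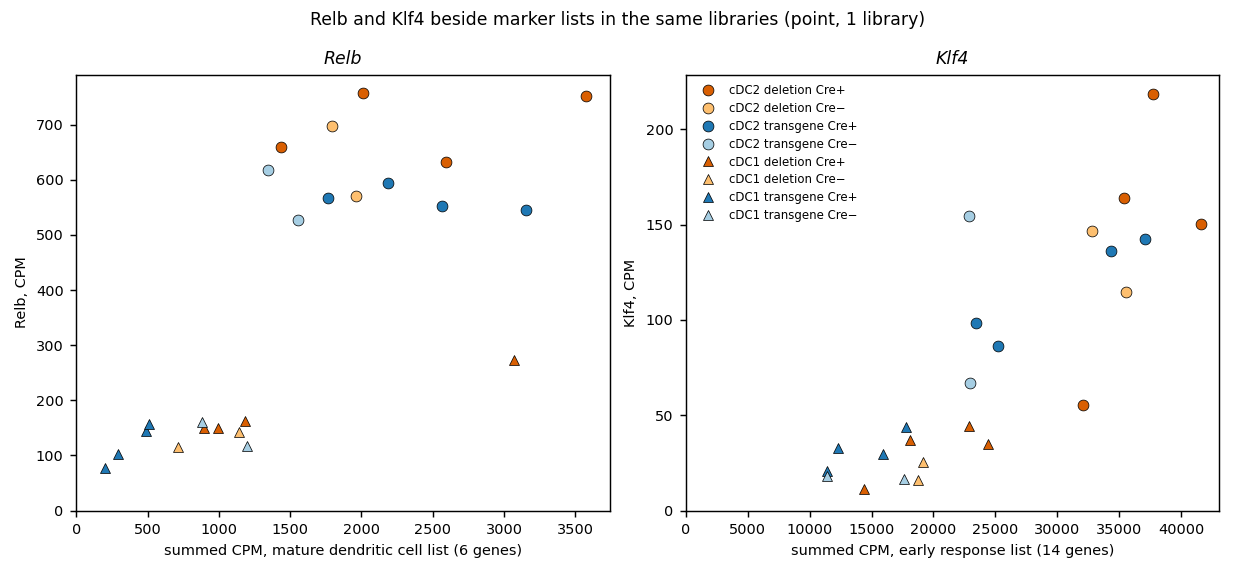
Left, Relb CPM against the summed CPM of the mature dendritic cell list; right, Klf4 CPM against the summed CPM of the early response list; each point is 1 library, circles are cDC2 and triangles cDC1. The cDC1 library with 3068 CPM of the mature list has 272 CPM of Relb, above the other cDC1 libraries and below every cDC2 library.

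Within control cDC2, the order of the levels per kilobase was Relb (155 ± 19 CPM), Dtx1 (85.5 ± 17), Hes1 (45.8 ± 9.2), Klf4 (39.5 ± 13), Runx3 (31.0 ± 5.3), Notch2 (24.7 ± 4.9), Rbpj (16.0 ± 1.6) and Notch1 (0.334 ± 0.082; SD, n = 4 each). Relb, Dtx1 and the rest stood apart without overlap, the libraries of the neighbours Hes1 and Klf4, Klf4 and Runx3, and Runx3 and Notch2 overlapped, and Rbpj and Notch1 again stood apart. In control cDC1 the order was Relb (34.4 ± 5.7), Notch2 (27.4 ± 3.1), Hes1 (26.8 ± 4.0), Rbpj (25.2 ± 2.7), Runx3 (12.6 ± 2.6), Klf4 (6.26 ± 1.4), Notch1 (0.671 ± 0.12) and Dtx1 (0.217 ± 0.088; SD, n = 4 each). Dtx1 moved in that order more than any other member, as the second most abundant transcript of the group in cDC2 and the scarcest in cDC1. These levels depend on the GENCODE exon lengths used here, since the annotation behind the counts is not given in the sources used here.

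The subset pattern was next followed into the Cre+ mice of each line. In the deletion line 8 of 8 genes passed the edgeR threshold between Cre+ cDC2 and Cre+ cDC1, against 56.1% of all tested genes (29% higher and 27.1% lower). In the transgene line 6 of 8 passed, against 52.9% (26.8% higher and 26% lower). The libraries did not overlap for 7 of 8 genes in the deletion line, against 50.1% of all tested genes (25.8% higher and 24.4% lower), and for 6 of 8 in the transgene line, against 47.8% (24% higher and 23.8% lower). The directions were those of the controls for every gene. Dtx1 differed by a log2 fold change of 9.43 (SE 0.54, edgeR adjusted p = 1.1e-12) in the Cre+ deletion line and of 5.74 (SE 0.45, edgeR adjusted p = 3.0e-10) in the Cre+ transgene line. Klf4 (2.21 and 1.86), Relb (1.93 and 2.23), Runx3 (1.41 and 1.11) and Hes1 (0.80 and 0.46) were higher in cDC2 of both Cre+ lines on the log2 scale, deletion line first. Notch1 was lower in cDC2 of both, by log2 fold changes of -1.71 and -1.35.

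Rbpj and Notch2 were the members whose subset difference passed in one Cre+ line and not in the other. Rbpj was lower in Cre+ cDC2 than in Cre+ cDC1 of the deletion line (log2 fold change -0.46, SE 0.084, edgeR adjusted p = 7.0e-05). In the transgene line its difference was -0.18 (SE 0.084, edgeR adjusted p = 0.0804), and its Cre+ cDC2 and cDC1 libraries overlapped. Notch2 had a difference of -0.32 (SE 0.11, edgeR adjusted p = 0.0191) in the deletion line, where the libraries overlapped and the call was lost without any of 3 single libraries (adjusted p of up to 0.0877), and of -0.093 (SE 0.11, edgeR adjusted p = 0.505) in the transgene line. Klf4, Relb, Dtx1 and Runx3 kept all 12 cDC2 libraries above all 12 cDC1 libraries, 4 of the 8 members against 24.5% of all tested genes.

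**Figure D3:**
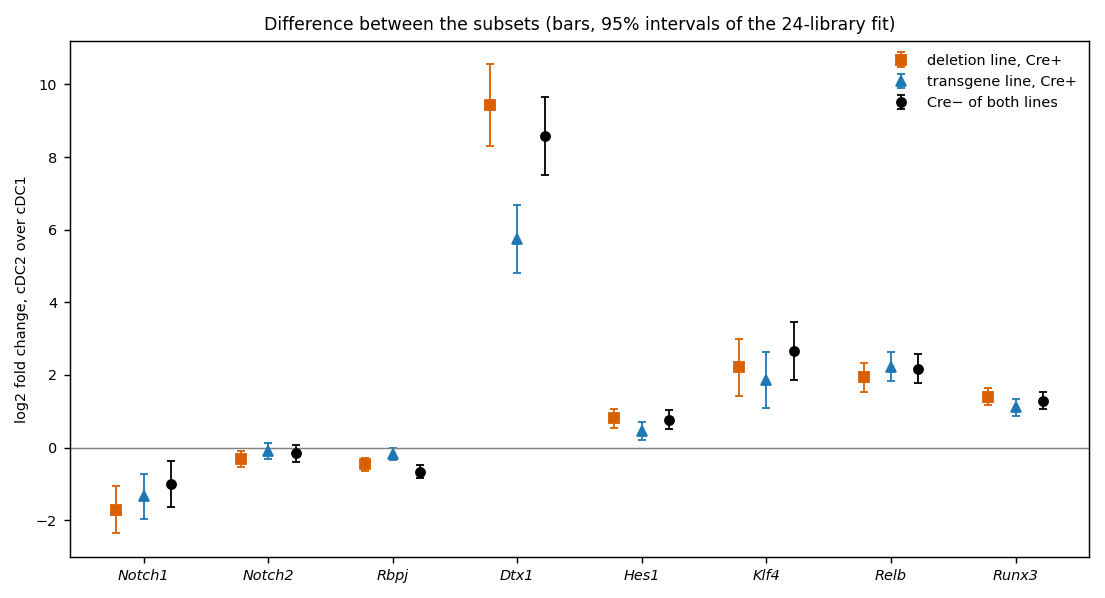
Log2 fold change of cDC2 over cDC1 (vertical axis) for each gene in Cre+ mice of the deletion line, Cre+ mice of the transgene line and Cre- mice of both lines; bars are 95% intervals of the fit to 24 libraries. Dtx1 has values of 9.43, 5.74 and 8.58, while Relb stays between 1.93 and 2.23.

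The effect of Cre within cDC2 came next, first for the deletion line. None of the 8 genes passed the edgeR threshold between Cre+ and Cre- cDC2 of that line, against 5.21% of all tested genes (2.33% higher and 2.88% lower); 1 had an unadjusted p under 0.05 and DESeq2 called 0. Counts at an unadjusted p and by DESeq2 are given here and below without their shares over all tested genes. They are not read as results. Rbpj had 234, 254, 231 and 220 CPM with Cre, against 173 and 214 CPM without it. All 4 Cre+ libraries were above both Cre- libraries, but the log2 fold change of 0.28 (95% interval 0.060 to 0.49) had an edgeR adjusted p of 0.143, and 27.1% of all tested genes also had groups without overlap (13.5% higher and 13.6% lower). Dtx1 had 522, 606, 532 and 645 CPM with Cre, against 574 and 443 CPM without, and its 95% interval for the log2 fold change ran from -0.69 to 1.05. Klf4 varied most among the Cre+ libraries, at 55.2, 150, 218 and 164 CPM, against 115 and 147 CPM in the Cre- libraries. In the same order, the early response list summed to 32116, 41600, 37777 and 35372 CPM with Cre, against 35582 and 32813 CPM without. Its part in the Klf4 values was not tested. Notch1 had a log2 fold change of -0.63 (95% interval -1.41 to 0.15). Dtx1 was at 0.18 and Klf4 at 0.17, and Notch2, Relb, Hes1 and Runx3 lay between -0.19 and 0.14. In these libraries a B cell list of 8 genes summed to 226 to 281 CPM with Cre, against 64.3 to 79.6 CPM without. Of its 7 tested genes 2 passed as higher and 5 did not pass, with a median log2 fold change of 0.085. A monocyte list of 7 genes summed to 1002 to 1236 CPM, against 2850 to 3569 CPM. Of these genes 3 passed as lower and 4 did not pass, with a median of -0.90. The cDC1 list summed to 147 to 176 CPM, against 189 to 216 CPM. Of its 9 genes 1 passed as higher, 2 as lower and 6 did not pass, with a median of 0.0625. The part of these lists in the values of the members was not tested.

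In cDC2 of the transgene line, Dtx1 stood out. It had 134, 147, 174 and 135 CPM in the Cre+ libraries, against 355 and 430 CPM in the Cre- libraries, means of 148 ± 18 (SD, n = 4) and 393 ± 53 (SD, n = 2). Every Cre+ library was below both Cre- libraries, and also below all 6 cDC2 libraries of the deletion line. The log2 fold change was -1.41 (SE 0.40, 95% interval -2.25 to -0.57) in the fit to all 24 libraries, with an unadjusted p of 0.00206 and an edgeR adjusted p of 0.173. In that fit 0 of the 8 genes passed, against 0.327% of all tested genes (0.114% higher and 0.213% lower), and DESeq2 called 0 as well.

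The call on Dtx1 differed with the libraries that entered the fit. With the 6 compared libraries alone the fold change was again -1.41 and the edgeR adjusted p was 0.000862, in a fit that called 0.442% of tested genes. With the 12 cDC2 libraries, an alternative chosen after seeing the data, the fold change was -1.42 and the adjusted p was 3.1e-05, against 0.456% of genes called. The 24-library fit also takes in the cDC1 libraries, with 0 to 126 counts of Dtx1. The fits also differ in the genes tested and in scaling, and which of these moved the call was not tested. Over all 13 alternatives the adjusted p ran from 3.1e-05 to 0.702, the fold change from -1.54 to -1.10, and 2 alternatives passed. The cDC2 markers summed to 2926 to 3492 CPM in these Cre+ cDC2, against 2597 to 2638 CPM in Cre- cDC2, and the B cell list, a cell type in which Dtx1 is also known, to 54.9 to 114 CPM, against 83.6 to 86.1 CPM. The mature dendritic cell list summed to 1766 to 3156 CPM with Cre, against 1345 to 1558 CPM without, and the early response list to 23422 to 37087 CPM, against 22835 to 22929 CPM. The part of these lists in the Dtx1 difference was not tested.

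The promoter of Dtx1 is shown because it was the member with the greatest separation, and the first promoter of Rbpj because Rbpj is the DNA-binding partner and was lower with the transgene in cDC1. Both are the 250 bases before the RefSeq start site on GRCm38.p6, 5′ to 3′ on the gene's strand, at chr5:120711670-120711919 (minus strand) for Dtx1 and chr5:53590096-53590345 (plus strand) for Rbpj. Capitals mark matches to CACCTG, a core bound by ZEB factors, and to TGGGAA, a core bound by RBPJ, on either strand.
Dtx1: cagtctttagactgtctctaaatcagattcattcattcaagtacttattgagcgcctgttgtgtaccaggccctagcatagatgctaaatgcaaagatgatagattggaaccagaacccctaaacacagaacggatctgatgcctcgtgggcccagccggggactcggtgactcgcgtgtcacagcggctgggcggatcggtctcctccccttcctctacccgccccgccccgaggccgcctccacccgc
Rbpj: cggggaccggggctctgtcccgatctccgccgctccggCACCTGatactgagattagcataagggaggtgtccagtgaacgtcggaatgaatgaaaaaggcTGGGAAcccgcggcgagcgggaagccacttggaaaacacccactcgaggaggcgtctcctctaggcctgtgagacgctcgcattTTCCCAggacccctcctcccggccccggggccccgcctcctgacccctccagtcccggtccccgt

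The Dtx1 window holds neither motif, and the Rbpj window holds CACCTG once and the RBPJ core at 149 and 65 bases before the start. Of the 8 genes, 6 matched the RefSeq table, with 8 windows of 300 bases that also take in the first 50 bases of the transcript. Among them the second Rbpj window shares the RBPJ core match nearest the start, the first Runx3 window holds 1 match to each motif, and the windows of Notch1, Notch2 and Klf4 and the second of Runx3 hold none. Over all 32851 windows, 20.2% hold CACCTG and 25.6% hold TGGGAA on either strand. The matches are descriptions of letters and not evidence of binding.

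The remaining genes moved less in cDC2 of the transgene line. Rbpj had 176, 192, 196 and 199 CPM with Cre, against 208 and 219 CPM without, and Hes1 had 92.3, 91.9, 112 and 98.2 CPM, against 87.9 and 74.9 CPM. Neither pair of groups overlapped, as for 20.9% of all tested genes (11% higher and 9.97% lower), and neither passed (log2 fold changes of -0.16 and 0.27, edgeR adjusted p of 0.716 and 0.648). The 95% intervals of Notch2 (-0.21 to 0.36), Relb (-0.50 to 0.46) and Runx3 (-0.096 to 0.47) were narrower than those of Klf4 (-0.84 to 0.98) and Notch1 (-0.36 to 1.22).

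**Figure D4:**
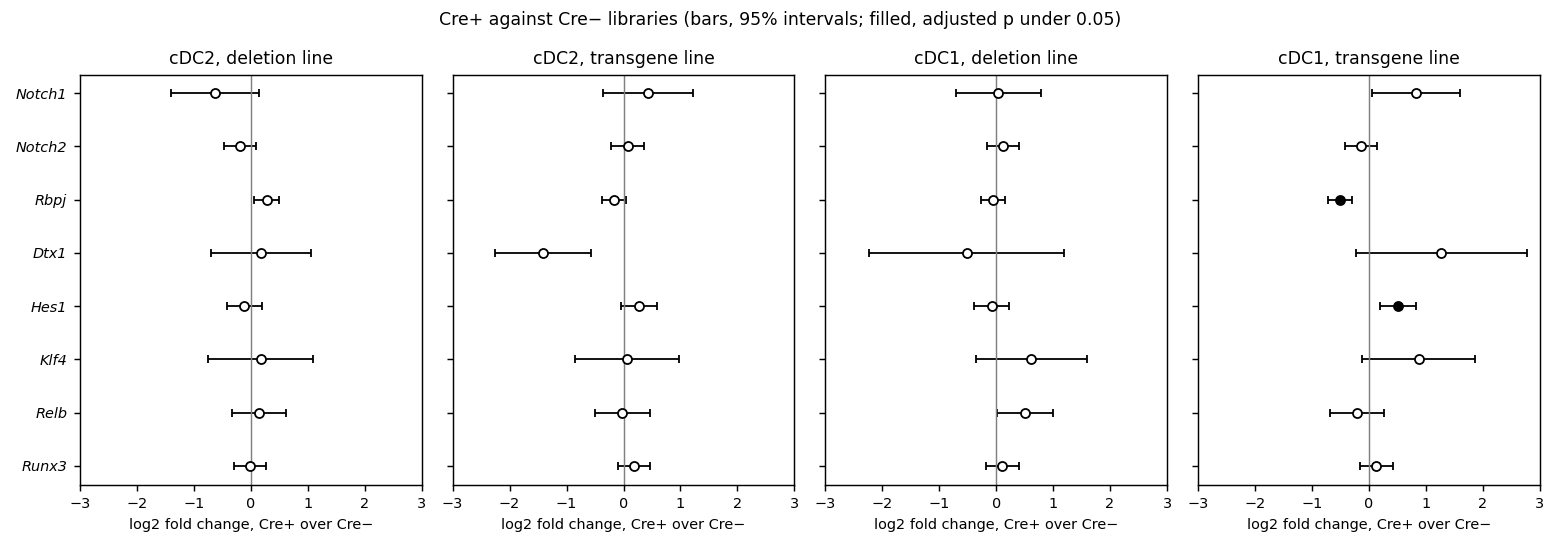
Log2 fold change of Cre+ over Cre- libraries (horizontal axis) for the 8 genes in each subset and line; bars are 95% intervals of the fit to 24 libraries and filled points have an adjusted p under 0.05. The filled points are Rbpj at -0.51 and Hes1 at 0.51 in cDC1 of the transgene line, and the open point farthest from 0 on the left is Dtx1 at -1.41 in cDC2 of that line.

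In cDC1 of the transgene line, where Zeb2 was switched on in cells that hardly express it, 2 of the 8 genes passed: Rbpj fell and Hes1 rose. The share of all tested genes that passed was 7%, with 3.58% higher and 3.42% lower. Rbpj had 215, 203, 247 and 198 CPM in Cre+ cDC1, against 295 and 321 CPM in Cre- cDC1, with a log2 fold change of -0.51 (SE 0.10, edgeR adjusted p = 0.00206). All Cre+ libraries were below both Cre- libraries, within the 198 to 247 CPM that overlap the cDC2 range of 173 to 254 CPM. The call held in 12 of 13 alternatives and was lost without Cre- replicate 2, where the fold change was -0.45 and the edgeR adjusted p was 0.0503.

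Hes1 had 80.9, 61.5, 82.0 and 62.4 CPM in Cre+ cDC1, against 50.5 and 50.0 CPM in Cre- cDC1 of the transgene line. These Cre+ values overlapped those of cDC1 of the deletion line, at 46.6 to 67.9 CPM with Cre and 50.8 to 66.9 CPM without. The Cre- transgene mean of 50.3 CPM was the lowest of the 8 groups. Within the transgene line the cDC1 groups did not overlap, and the log2 fold change was 0.51 (SE 0.15, edgeR adjusted p = 0.0463). This call lay close to the threshold, held in 5 of 13 alternatives, and reached an adjusted p of 0.209 without Cre- replicate 2. Notch1 had 16.4, 11.6, 17.8 and 14.3 CPM with Cre, against 9.04 and 7.93 CPM without, and Klf4 had 33.0, 20.9, 43.9 and 29.6 CPM, against 18 and 16.7 CPM. Both were without overlap, as were 25.2% of all tested genes (13.4% higher and 11.8% lower), but neither passed (log2 fold changes of 0.82 and 0.87, edgeR adjusted p of 0.215 and 0.330).

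Dtx1 remained scarce in Cre+ cDC1 of the transgene line, at 4.53, 4.83, 1.55 and 0.464 CPM, against 1.65 and 0.541 CPM in Cre- cDC1. The groups overlapped, and the 95% interval of the log2 fold change ran from -0.22 to 2.77 (edgeR adjusted p = 0.351). The same 4 Cre+ libraries had summed cDC2 markers of 324, 302, 189 and 124 CPM, against 39.7 and 40.5 CPM in the Cre- libraries, and summed cDC1 markers of 4161, 4280, 4765 and 5577 CPM, against 7263 and 8792 CPM. The macrophage list of 8 genes summed to 203 to 377 CPM in the Cre+ libraries, against 138 to 172 CPM in the Cre- libraries, and the monocyte list to 474 to 547 CPM, against 256 to 470 CPM. Of the genes, 3 of 8 and 1 of 7 passed as higher, macrophage list first, and 0 as lower, where 3.58% of all tested genes were higher. The median log2 fold change was 0.43 for the macrophage list and -0.064 for the monocyte list. The B cell list summed to 11.3 to 24.9 CPM with Cre, against 33.0 to 50.8 CPM without, and a plasmacytoid dendritic cell list of 6 genes to 70.6 to 83.5 CPM, against 103 to 110 CPM. In each of these lists 1 gene passed as lower, of 7 and 6 tested, where 3.42% of all tested genes were lower. The part of these differences in the values of Rbpj, Hes1 and Dtx1 was not tested. Relb (145, 157, 76.9 and 103 CPM with Cre, against 116 and 161 CPM without), Notch2 and Runx3 overlapped between the groups. The mature dendritic cell list summed to 201 to 513 CPM in these Cre+ libraries, against 882 to 1195 CPM in the Cre- libraries.

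In cDC1 of the deletion line, where Zeb2 was scarce with and without Cre, 0 of the 8 genes passed, against 0.0228% of all tested genes; 1 had an unadjusted p under 0.05 and DESeq2 called 0. That gene was Relb, with 149, 272, 162 and 149 CPM in Cre+ cDC1, against 115 and 142 CPM in Cre- cDC1. The Cre+ libraries were all above the Cre- libraries, as for 11.7% of all tested genes (6.1% higher and 5.58% lower), and the log2 fold change was 0.51 (95% interval 0.022 to 1.0, edgeR adjusted p = 0.996). It was 0.26 without Cre+ replicate 2, the library with 272 CPM, whose mature dendritic cell list summed to 3068 CPM, against 896 to 1181 CPM in the other Cre+ libraries and 713 to 1144 CPM in the Cre- libraries. Dtx1 was listed at 0 counts in Cre+ replicate 1 and at 6 to 39 counts in the other Cre+ libraries, against 29 and 31 counts in the Cre- libraries. A count of 0 allows up to 3 counts, or 0.114 CPM in that library, counting error only.

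The effect of Cre was also compared between subsets, as the change in cDC2 minus the change in cDC1, on the log2 scale. In edgeR 0 of the 8 genes passed in the deletion line, against 1.08% of all tested genes (0.585% higher and 0.494% lower), and 0 of the 8 in the transgene line, against 2.01% (0.82% higher and 1.18% lower). At an unadjusted p under 0.05 the counts were 1 and 2, deletion line first, and DESeq2 called 0 in both. The widest gap was that of Dtx1 in the transgene line, at -2.69 (SE 0.82, edgeR adjusted p = 0.10), where Cre went with less Dtx1 in cDC2 and with an uncertain change from a near absent level in cDC1. Without Cre+ cDC1 replicate 4 of that line it was -3.08 and passed (edgeR adjusted p = 0.0126), so 1 library decides this call. Rbpj had a difference of 0.33 (SE 0.15, edgeR adjusted p = 0.320) in the deletion line and of 0.35 (SE 0.15, edgeR adjusted p = 0.284) in the transgene line.

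The Cre- libraries of the transgene line were set against those of the deletion line as a check on the lines themselves. None of the 8 genes passed edgeR's test in either subset, against 0.137% of all tested genes in cDC2 (0.0835% higher and 0.0532% lower) and 0.129% in cDC1 (0.0456% higher and 0.0835% lower); 2 and 0 had an unadjusted p under 0.05, cDC2 first, and DESeq2 called 0 in both. The 4 members without overlap in cDC2 were all lower in the transgene line: Notch2, with a log2 fold change of -0.41 (SE 0.16, edgeR adjusted p = 0.460), Hes1, with -0.37 (SE 0.17, edgeR adjusted p = 0.538), Runx3, with -0.31 (SE 0.16, edgeR adjusted p = 0.577), and Dtx1, with -0.37 (SE 0.48, edgeR adjusted p = 0.873). Hes1 was lower without overlap in cDC1 as well (-0.23, SE 0.18, edgeR adjusted p = 0.799). Zeb2 itself, not one of the 8, was lower without overlap in Cre- cDC2 of the transgene line (-0.57, SE 0.33, edgeR adjusted p = 0.628). With 2 libraries on each side, 40.7% of all tested genes had no overlap in cDC2 (19.2% higher and 21.5% lower), and 34.2% in cDC1 (16.8% higher and 17.4% lower), where Hes1 and Notch1 had none. Of the 104 pathway genes described further on, 1 passed here: Maml2, a coactivator of the Notch complex, was lower in Cre- cDC2 of the transgene line than in those of the deletion line (log2 fold change -2.41, SE 0.45, edgeR adjusted p = 0.0236). That call was lost in 6 of 10 alternatives, among them each of the 4 that leave out 1 library (adjusted p of 0.0906 to 0.387).

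Across the 8 groups, the order of the mean levels put the 4 cDC2 groups above the 4 cDC1 groups for Dtx1, Hes1, Klf4, Relb and Runx3, and the 4 cDC1 groups above the 4 cDC2 groups for Notch1. Dtx1 was the member with the most gaps inside cDC2: the deletion line averaged 576 CPM with Cre and 508 CPM without, which overlapped, and the transgene line averaged 148 CPM with Cre and 393 CPM without, each apart from its neighbours. For Notch2 no neighbours in the order stood apart. For Rbpj the single gap lay below the cDC1 groups other than the Cre+ transgene group, whose mean of 216 CPM fell among those of cDC2, from 191 to 235 CPM. For Klf4, Relb and Runx3 the single gap lay between the subsets.

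Other genes of the pathways were taken from lists of 104 tested genes in all. Between control cDC2 and control cDC1, 8 of 26 genes of Notch ligands, receptors and processing were higher and 10 were lower. Of all tested genes, 27.6% were higher and 25.8% were lower in this comparison, and the shares of this list lay near them or somewhat above on the lower side. Lower were Notch4, a receptor known from endothelium (log2 fold change -4.25), the ligand Jag2 (-5.35), Aph1c, a subunit of gamma-secretase (-1.25), and the glycosyltransferase Poglut1 (-1.07). Higher were the ubiquitin ligase Itch (0.66), the proteases Adam10 (0.69) and Adam17 (0.60), which cut the receptor, and the glycosyltransferase Mfng (0.60). The median of the list was 0.014, beside 0.048 over all genes tested.

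Coactivators of the Mastermind family, which bind the complex of RBPJ and the Notch intracellular part, were split between the subsets. Maml3 (3.42) and Maml1 (0.80) were higher in control cDC2, as was L3mbtl3 (1.49), and Maml2 (-2.62) was lower. In all, 5 of 20 genes of the nuclear complex were higher, Snw1 (0.21) among them, and 2 were lower, the other being the corepressor Ctbp2 (-0.52). Without Cre- cDC1 replicate 2 of the transgene line Ctbp2 was at -0.28 (edgeR adjusted p = 0.136), and without Cre- cDC1 replicate 1 of the deletion line at -0.34, not called either time. The share higher was close to the 27.6% of all tested genes, and the share lower was under their 25.8%. Of 15 tested targets and Deltex relatives, 4 were higher in control cDC2, with the cyclin gene Ccnd1 at 2.19, the cDC2 marker Esam at 2.88, the T cell factor Gata3 at 2.87 and the Notch feedback gene Nrarp at 2.09, and 2 were lower, Dtx4 at -2.25 and Hes7 at -2.19, a share higher near the 27.6% of all tested genes. Without Cre- cDC1 replicate 1 of the transgene line, Gata3 was at 5.78 and Nrarp at 3.39. Gata3, Nrarp and Hes7 were tested in 14 alternatives and not in 15, because they did not reach the stricter filter of 5 CPM in 4 libraries. Their fold changes thus rest on low counts. Dtx1 and its relative Dtx4 thus differed in opposite directions between the subsets.

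In the NF-kappa B list around Relb, 20 of 24 genes were higher in cDC2 and 2 were lower, where 27.6% of all tested genes were higher and 25.8% lower. The median of the list was 0.83, beside 0.048 over all genes tested. The precursor gene Nfkb1 (2.66), the inhibitor-related genes Bcl3 (2.45) and Nfkbie (1.22) and the adaptor Traf2 (1.26) were among those higher, and the inhibitor Nfkbib (-0.46) and the kinase Chuk (-0.33) were lower. Of 14 genes of the KLF family besides Klf4, 4 were higher, Klf13 (1.88), Klf9 (1.29), Klf10 (0.96) and Klf11 (0.62), and 2 were lower, Klf5 (-2.51) and Klf3 (-0.32), a share higher near the 27.6% of all tested genes. Without Cre- cDC2 replicate 1 of the transgene line, Klf5 was at -3.96 and Klf11 at 0.41, and Klf11 was then no longer called (edgeR adjusted p = 0.121). Klf5 also did not reach the stricter low-count filter, so its fold change rests on low counts. Of 5 RUNX partners, Runx2 was higher (1.71) and none was lower, which is no more than the shares over all genes. All these genes passed edgeR's test over all genes, with adjusted p of up to 0.0160, the highest being that of Snw1. Snw1, Ctbp2 and Klf11 were each lost in 3 of 15 alternatives.

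With the Zeb2 deletion in cDC2, 4 of the 104 list genes passed, against 5.21% of all tested genes. Jag1, a Notch ligand, rose, with 89.8, 103, 76.4 and 82.7 CPM in Cre+ cDC2, against 32.1 and 27.2 CPM in Cre- cDC2 (log2 fold change 1.57, SE 0.38, edgeR adjusted p = 0.0171). Numb, an inhibitor of Notch, rose as well, with 24.4, 26.6, 28.0 and 18.9 CPM, against 14.4 and 14 CPM (0.79, SE 0.15, edgeR adjusted p = 0.0018). The acetyltransferase gene Kat2a fell by 0.57 and Nfkb1 fell by 0.52 on the log2 scale (edgeR adjusted p of 0.00464 and 0.0127). Numb passed in all 13 alternatives, while Jag1 and Nfkb1 were lost without either Cre- library, at adjusted p of up to 0.150 and 0.179, and Kat2a without Cre- replicate 1, at 0.225. The sums of the B cell and monocyte lists given above differed in the same libraries, and their part was not tested.

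**Figure D5:**
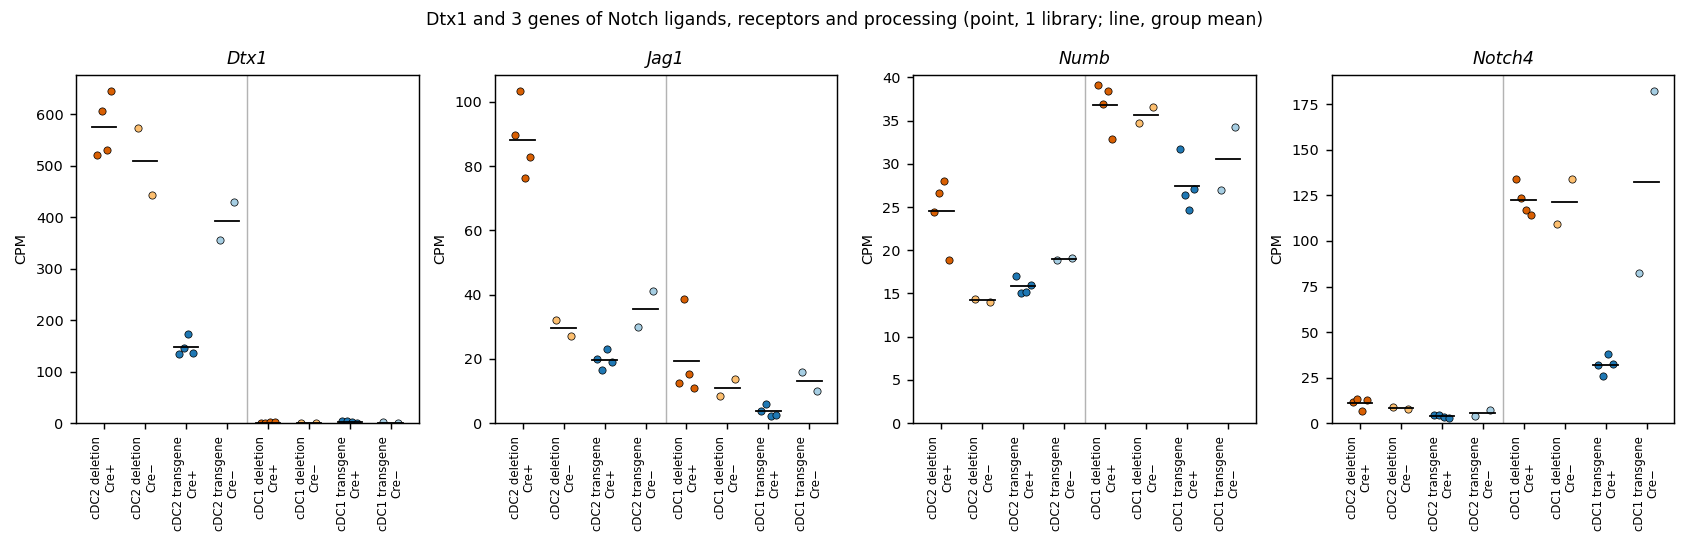
CPM of Dtx1, Jag1, Numb and Notch4 (vertical axes from 0) in the 24 libraries by group, with points for libraries and lines for group means. Jag1 lies at 76.4 to 103 CPM in Cre+ cDC2 of the deletion line and at 16.5 to 22.9 CPM in Cre+ cDC2 of the transgene line, and Notch4 at 26.1 to 37.7 CPM in Cre+ cDC1 of the transgene line, against 82.3 and 182 CPM in Cre- cDC1.

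With the Zeb2 transgene in cDC1, 7 of the 104 list genes passed, against 7% of all tested genes. Notch4 fell, with 31.8, 26.1, 37.7 and 32.5 CPM in Cre+ cDC1, against 82.3 and 182 CPM in Cre- cDC1 (log2 fold change -2.05, SE 0.25, edgeR adjusted p = 6.7e-06), and passed in all 13 alternatives. Without Cre- replicate 2, the library with 182 CPM, its fold change was -1.36. Jag1 fell too, with 3.74, 5.85, 2.36 and 2.67 CPM, against 16.0 and 9.99 CPM (-1.85, SE 0.39, edgeR adjusted p = 0.00338), and was lost without Cre- replicate 1, at 0.105. Klf8 fell by 1.18 on the log2 scale (edgeR adjusted p = 0.00253; 0.0533 without Cre- replicate 1). Esam (1.05), Tnfrsf13c, the receptor for BAFF (1.21), Bcl2 (0.63) and Klf13 (0.40) rose at edgeR adjusted p of 0.0141, 0.0185, 0.0333 and 0.0458, and each was lost in 4 or more of 13 alternatives. Bcl2 was at 0.41 without Cre- replicate 2, and Klf13 at 0.18 without Cre- replicate 1 and at 0.66 without Cre- replicate 2. Esam is also among the cDC2 markers whose sum was higher in these libraries.

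Jag1 did not pass in the other Cre comparisons. It had 19.9, 16.5, 22.9 and 18.9 CPM in Cre+ cDC2 of the transgene line, against 29.8 and 41.1 CPM in Cre- cDC2, a log2 fold change of -0.86 without overlap (SE 0.35, edgeR adjusted p = 0.458). In cDC1 of the deletion line it had 12.6, 38.5, 15.4 and 10.9 CPM with Cre, against 8.42 and 13.7 CPM without, and the groups overlapped. In cDC2 of the transgene line and in cDC1 of the deletion line 0 of the 104 list genes passed in edgeR. Of all tested genes 0.327% and 0.0228% passed, in that order. At an unadjusted p under 0.05 there were 13 and 5 list genes, and DESeq2 called 2 and 0. The shares of all tested genes under these last rules are not given here.

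The genes whose pattern over the 8 group means was nearest to each member were found by the root mean square of the difference in centred log2 CPM. For Dtx1 they were Tmod2 (0.72) and Tlr7 (0.77), less close than those of the others; the group means of Dtx1 themselves had an SD of 4.67 on that scale. Klf4 was nearest to Arhgef3 (0.076) and Fyb (0.15), Relb to St3gal2 (0.083) and Celf4 (0.13), and Runx3 to Rasal3 (0.078) and Rest (0.086). Rbpj was nearest to Ly96 (0.072) and Mapk9 (0.076), Hes1 to Ckap5 (0.074) and Flcn (0.087), Notch1 to Tmem107 (0.15) and Map3k6 (0.18), and Notch2 to Slc25a25 (0.058) and Huwe1 (0.062). The members themselves were left out of this search.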

How the data were processed

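Sorted splenic cDC1 and cDC2 gave 24 libraries. Per the labels' protocols, SMART-Seq v4 amplified 4 ng of RNA over 15 PCR cycles, and reads of 75 bases were sequenced. Per the submitters' processing notes, FastQC 0.11.4, Trimmomatic 0.35, TopHat2 2.1.0, SAMtools 0.1.18 and mm10 were used. The deposited files hold the authors' whole-number counts per gene symbol, not normalized. Not given in the sources used here are the program that counted reads, its annotation and its strand rule. The 5 lines naming no gene were left out of totals and tests (no feature 10.43 to 15.68%, ambiguous 0.9702 to 1.086%).

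Software was DESeq2 1.42.0, limma 3.58.1 and edgeR 4.0.16 under R 4.3.3. Genes were filtered with filterByExpr (minimum count 10, minimum total 15), scaled by TMM, and fitted with 8 group means over 24 libraries, and the quasi-likelihood test was adjusted by Benjamini-Hochberg at 0.05. The SE is the fold change over the root of F, and intervals are at 95%. The edgeR fold changes use the default prior count of its fit, and single-library log2 values use one of 0.5. Libraries of 1 group differed beyond sampling noise (chi-square per gene 10.1 to 51.1 over 28 pairs), so none was counted as a repeat. Replicate numbers were not taken as pairs.

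All 8 members are named, together with at most 4 passing genes per list, direction and comparison by smallest p, and the 2 genes nearest in pattern to each member. The members and lists were chosen with earlier results of these data known. Lengths are GENCODE exon unions, and promoters are RefSeq's. Alternatives were DESeq2 or its size factors, no filter or a stricter one (5 CPM in 4 libraries), the compared libraries alone, a replicate block, and each library left out. The 12-library fit of 1 subset and a block on line, Cre and number were chosen after seeing the data.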

Additional observations from a re-analysis of the deposited data

Results flagged for a closer look

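Relb and Notch2 had 1 library far from the other 3 in a Cre+ group, measured as the gap to the nearest library over the range of the group, in cDC1 of the deletion line. Relb was 272 CPM in replicate 2, with a gap of 0.891 of the range, and Notch2 was 385 CPM in replicate 4, with a gap of 0.872. With 32 groups of 4 libraries looked at, chance alone gives about 1 such group in 20, beside the 2 seen here. The change with Cre differed between the subsets for 4 list genes, as cDC2 minus cDC1 on the log2 scale, 3 of 104 in the transgene line, against 2.01% of all tested genes, and 1 of 104 in the deletion line, against 1.08%. In the transgene line these were Maml2 at 2.59 (edgeR adjusted p = 0.00652), Il2ra at 3.32 (0.0427) and Notch4 at 1.54 (0.0440). In the deletion line it was Kat2a at -0.71 (edgeR adjusted p = 0.0408). Maml2 also differed between the Cre- cDC2 of the lines, as given above. Maml2 passed in 18 of 19 alternatives, Notch4 in 10 of 19, Kat2a in 9 of 19 and Il2ra in 5 of 18. Il2ra did not reach the stricter low-count filter and rests on low counts. Without Cre- cDC1 replicate 1 of the transgene line Il2ra was at 1.85, and without Cre- cDC1 replicate 2 Notch4 was at 0.85, at adjusted p of 0.444 and 0.421.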

How the results depend on the processing

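The 7 members called between the control subsets were called in all 15 alternatives. In cDC2 of the transgene line the count of members called was 1 instead of 0 with the compared libraries alone and with the 12 cDC2 libraries, in both cases Dtx1, where 0.442% and 0.456% of all tested genes were called. In cDC1 of the transgene line it was 1 instead of 2 under DESeq2 size factors, the replicate block, the compared libraries alone and the 12 cDC1 libraries, where 6.91%, 8.23%, 4.21% and 5.02% of all tested genes were called in that order. It was 0 to 2 without single libraries: 0 without Cre- replicate 2 (3.7% of all genes called) and 1 without Cre- replicate 1 (4.53%), Cre+ replicate 1 (5.75%) or Cre+ replicate 3 (6.18%). In the transgene comparison between subsets it was 0 to 1 without single libraries, 1 without Cre+ cDC1 replicate 4, where 2.54% of all genes were called.

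The replicate block treated libraries of the same number within a line as matched, across subset and Cre. The labels do not give such a match, and Cre+ and Cre- libraries come from different mice. Same-numbered Cre+ and Cre- libraries correlated at -0.1 to 0.070 in their deviations from group means. This block reversed 5 uncalled log2 fold changes: Klf4 to -0.51 and Dtx1 to -0.031 in cDC2 of the deletion line, Klf4 to -0.13 and Relb to 0.21 in cDC2 of the transgene line, and Klf4 to -0.0035 in cDC1 of the deletion line. It ended the calls of Hes1 (adjusted p 0.0531) and Klf13 (0.11) in cDC1 of the transgene line and of Maml2 (0.0987) between the Cre- cDC2 of the lines. The differences between subsets of Kat2a (0.0683, and 0.0693 with the block on line, Cre and number) and Il2ra (0.0771 and 0.124) were no longer called either. Same-numbered cDC2 and cDC1 libraries correlated at 0.0029 to 0.132 in their deviations from group means, over 0.1 in 1 of 12 pairs, and all 12 best with their own number (prior count 0.5). With a prior count of 2 the range was -0.0078 to 0.17, with 7 pairs over 0.1 and 10 best with their own, a hint from the data and not from the design, so the numbers were not taken as pairs. In groups of 2 Cre- libraries the deviations mirror each other, so both Cre- pairs of a line give the same value and are not separate. Every Cre+ pair was best with its own number under both prior counts. Leaving out 1 library reversed uncalled values, within these ranges. In cDC2 of the deletion line they were -0.35 to 0.0047 for Notch2, -0.083 to 0.44 for Klf4, -0.30 to 0.095 for Hes1 and -0.17 to 0.14 for Runx3. In cDC2 of the transgene line they were -0.41 to 0.80 for Klf4 and -0.13 to 0.10 for Relb. In cDC1 of the deletion line they were -0.11 to 0.22 for Notch1, -0.18 to 0.10 for Rbpj, -0.25 to 0.12 for Hes1 and -0.031 to 0.26 for Runx3. In cDC1 of the transgene line they were -0.30 to 0.056 for Notch2, -0.41 to 0.052 for Relb and -0.14 to 0.47 for Runx3. Between Cre- cDC1 of both lines they were -0.30 to 0.056 for Notch2, -1.13 to 0.47 for Dtx1 and -0.16 to 0.45 for Runx3, and between Cre- cDC2 -0.55 to 0.19 for Notch1. The cause was not tested. Each Cre- group has 2 libraries, and values under 3 counts per library (0.0869 to 0.148 CPM) cannot be told from 0; this covers counting error only.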
